A study of Mus musculus with 4 samples.

Results

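Among the wide H3K27me3 peaks found with 15000 erythro-myeloid progenitors (EMPs), 671 had no counterpart with 500 EMPs. They were the peaks of the 15000-EMP list on chromosomes 1 to 19, 2000 to 5000 bp wide, that no peak of the 500-EMP list overlapped by at least 1 bp. They made up 23.4% of the 2862 wide peaks, a share that came to 39.4% (1128 peaks) when a 500-EMP peak had to cover at least 10% of the peak and to 39.9% when 15000-EMP peaks within 1 kb were joined first. The other 2191 wide peaks were overlapped by a 500-EMP peak and served as the comparison. The whole 15000-EMP list held 15282 peaks and the 500-EMP list 10223 peaks. Because overlap with the 500-EMP list chose the members, their absence at 500 EMPs, their number and their widths are descriptions and not findings.

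The data came from CUT&RUN, in which an antibody tethers a nuclease to chromatin in permeabilised cells and the released DNA is sequenced. EMPs, the transient blood progenitors that bud from hemogenic endothelium, were taken from yolk sacs of C57BL/6 mouse embryos at E10.5. All 4 libraries carry the genotype label Ezh2fl/fl; Tie2-Cre+/+ Wild type. The cells were treated as wild type, which is how the study's text describes them. Tie2-Cre acts in endothelium and in the blood cells that descend from it. Each cell number, 500 and 15000 EMPs, had its own H3K27me3 library and its own IgG library, the background control. The 500-EMP libraries had 17 PCR cycles and reads of 76 bp, and the 15000-EMP libraries had 16 cycles and reads of 59 bp. Each group held 1 library, so no spread between replicates exists and no test was made. Peaks were called at a p-value limit of 0.01 for 500 EMPs and 0.05 for 15000 EMPs. Cell number, amplification, read length, instrument, this limit and aligned depth, which the study gives as lower for the smaller input, cannot be told apart. Intervals below are 95% Wilson intervals for shares and order-statistic intervals for medians. They cover counting error only and treat peaks as independent.

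H3K27me3 is a trimethyl mark that Ezh2, the catalytic subunit of Polycomb repressive complex PRC2, places on histone H3 at silent genes. PRC2 gathers at CpG islands, stretches of DNA rich in C followed by G, many of which lie at gene starts. Developmental regulators such as Hox and other homeobox genes typically carry broad domains of the mark in cells that do not use them.

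The range of DNA among the missed peaks is shown by the middle 300 bases of 3 of them, chosen by the ratio of observed to expected CpG over the whole peak, beside those of an overlapped peak near the median ratio. They are given 5′ to 3′ on the plus strand of GRCm38, with each CpG in capitals. Peaks were ranked by the ratio without those of 1 chromosome that is not printed here, and where the window touched an untranslated region the peak next in rank was taken. At the top stood a peak in the coding sequence of Irf2bpl (ratio 0.761, window chr12:86882435-86882734, 15 CpGs), a gene for a transcriptional regulator. Near the median stood a peak across the start of Crym (ratio 0.369, window chr7:120201084-120201383, 8 CpGs), which encodes a thyroid hormone binding protein. At the bottom stood a peak in an intron of Ulk4 (ratio 0.0223, window chr9:121237422-121237721, 1 CpG), with 99.3% of the peak marked as repeat. The overlapped peak lay across the start of Kcnmb2 (ratio 0.376, window chr3:31903179-31903478, 2 CpGs), a potassium channel subunit gene.
Irf2bpl, missed: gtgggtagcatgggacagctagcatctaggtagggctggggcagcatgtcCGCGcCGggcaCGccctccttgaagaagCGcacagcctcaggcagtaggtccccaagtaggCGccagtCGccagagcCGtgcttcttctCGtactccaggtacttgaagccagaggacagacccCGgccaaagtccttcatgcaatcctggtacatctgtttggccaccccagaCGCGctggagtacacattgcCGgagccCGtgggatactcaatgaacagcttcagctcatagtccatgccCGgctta
Crym, missed: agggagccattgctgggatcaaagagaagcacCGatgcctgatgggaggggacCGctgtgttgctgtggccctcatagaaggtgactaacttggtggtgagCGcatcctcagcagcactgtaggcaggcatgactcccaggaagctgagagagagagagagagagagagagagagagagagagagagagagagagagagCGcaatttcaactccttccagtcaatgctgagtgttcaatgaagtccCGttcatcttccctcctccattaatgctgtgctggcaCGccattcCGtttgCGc
Ulk4, missed: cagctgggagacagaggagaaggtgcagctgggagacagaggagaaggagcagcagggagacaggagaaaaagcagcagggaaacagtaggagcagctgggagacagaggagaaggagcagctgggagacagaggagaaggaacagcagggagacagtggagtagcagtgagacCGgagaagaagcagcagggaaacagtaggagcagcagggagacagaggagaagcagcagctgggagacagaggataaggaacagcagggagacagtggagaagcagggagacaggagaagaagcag
Kcnmb2, overlapped: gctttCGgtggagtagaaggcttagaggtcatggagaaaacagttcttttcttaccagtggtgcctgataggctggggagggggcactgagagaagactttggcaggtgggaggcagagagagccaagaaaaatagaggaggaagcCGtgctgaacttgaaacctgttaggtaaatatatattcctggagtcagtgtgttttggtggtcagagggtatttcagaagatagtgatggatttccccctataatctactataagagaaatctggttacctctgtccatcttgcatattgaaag

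The 250 bases before the RefSeq starts of a pair of genes whose starts lay inside missed peaks are shown as examples. All 250 bases lay inside the missed peak in both. Col5a1, a fibrillar collagen gene (chr2:27886175-27886424, plus strand), had 28 CpGs there, at a ratio of 0.772 and a GC content of 76.4%. Kcnj3, an inward rectifier potassium channel gene (chr2:55435720-55435969, plus strand), had 7 CpGs, at a ratio of 0.335 and a GC content of 58.4%.
Col5a1: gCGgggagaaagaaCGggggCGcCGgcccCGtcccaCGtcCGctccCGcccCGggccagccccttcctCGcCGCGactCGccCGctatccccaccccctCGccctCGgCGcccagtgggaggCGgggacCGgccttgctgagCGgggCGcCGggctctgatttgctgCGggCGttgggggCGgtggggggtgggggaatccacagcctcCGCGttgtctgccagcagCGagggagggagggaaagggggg
Kcnj3: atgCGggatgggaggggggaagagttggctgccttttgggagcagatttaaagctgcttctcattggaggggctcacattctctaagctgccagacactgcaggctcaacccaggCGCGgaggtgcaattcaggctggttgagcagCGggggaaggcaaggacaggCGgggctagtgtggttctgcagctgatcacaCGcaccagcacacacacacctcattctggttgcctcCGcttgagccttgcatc

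The missed peaks lay at the narrow end of the width range. Of the peaks of 2000 to 2499 bp, 338 of 904 were missed (37.4%, 34.3 to 40.6%). The share was 27% at 2500 to 2999 bp, 17.8% at 3000 to 3499 bp and 11.4% at 3500 to 3999 bp. It levelled off at 5.93% (15 of 253) and 6.06% (12 of 198) in the last steps. Across all widths, 67.6% of the 14959 autosomal 15000-EMP peaks had no 500-EMP peak, so the wide class was the better recovered one. Missed peaks had a median width of 2493 bp (2441 to 2549) and overlapped ones of 3054 bp (3005 to 3101), a difference of -561 bp (-631 to -487).

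**Figure D1:**
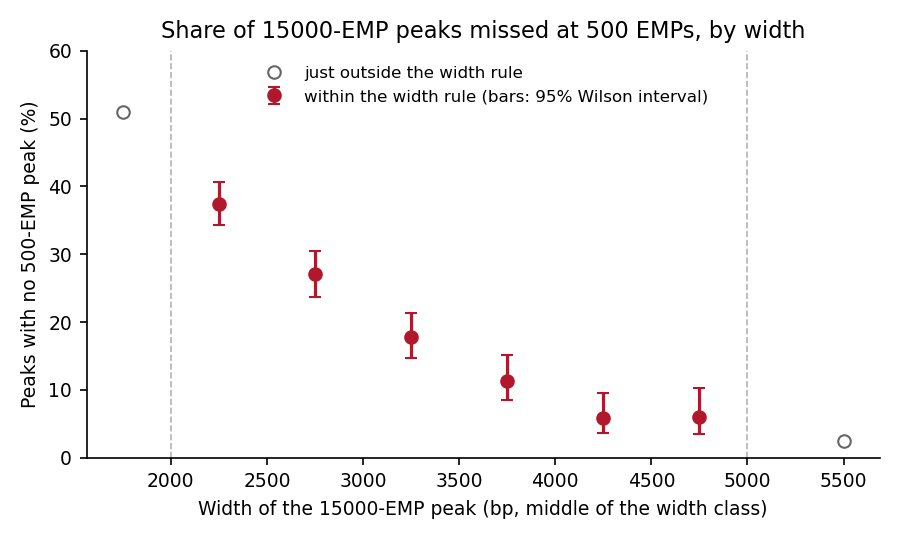
Share of 15000-EMP peaks with no 500-EMP peak (y axis, percent) against peak width (x axis, bp), with filled points for the 6 width classes of the rule, bars for 95% Wilson intervals and open points for the classes just outside it. The share falls from 37.4% at 2000 to 2499 bp to 6.06% at 4500 to 5000 bp, with 51.0% just below and 2.42% just above the rule.

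At the limits of the rule the change was gradual. The narrowest members were a peak of 2000 bp nearest to Fzd10 and a peak of 2001 bp in Fa2h, while unmatched peaks of 1999 and 1996 bp fell just outside. Above the upper limit the narrowest unmatched peaks measured 5111 and 5245 bp. The members closest to a 500-EMP peak were 1 in Eva1c, 4 bp away, and 1 upstream of Mki67, 6 bp away. On the other side, an overlapped peak across the start of Ccr10 shared 10 bp with a 500-EMP peak, and 1 across the start of 4833427G06Rik shared 25 bp.

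Overlap itself was thin. In the 2191 overlapped peaks, 500-EMP peaks covered a median of 21.2% of the length (quartiles 11.6 and 35.6%), or 650 bp. A single 500-EMP peak made the overlap in 1072 of them (48.9%), and under 10% of the length was covered in 457 (20.9%). A wide peak thus counted as overlapped through a short piece in many cases, and the line between missed and overlapped followed the presence of at least 1 such piece. Each list came from a pool of cells, in which a mark in few cells and a weak mark in many cannot be told apart.

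In base composition the missed peaks resembled the overlapped ones closely. The median CpG ratio was 0.370 (0.357 to 0.385) in missed and 0.376 (0.368 to 0.385) in overlapped peaks, a difference of -0.0066 (-0.022 to 0.011). The sign turned to 0.0072 when overlapped peaks were weighted to the missed widths. Over the middle 2000 bp of each peak the difference was 0.011 (-0.00029 to 0.027). Median GC content was 51.1% in both groups. Consecutive 2500-bp tiles of the same chromosomes had a median CpG ratio of 0.166 and a GC content of 41.6%, so both groups were CpG-rich against the genome. The share missed changed little with CpG content, from 24.6% in the lowest of 4 equal classes of the ratio, through 23.9% and 21.0%, to 24.3% in the highest class.

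**Figure D2:**
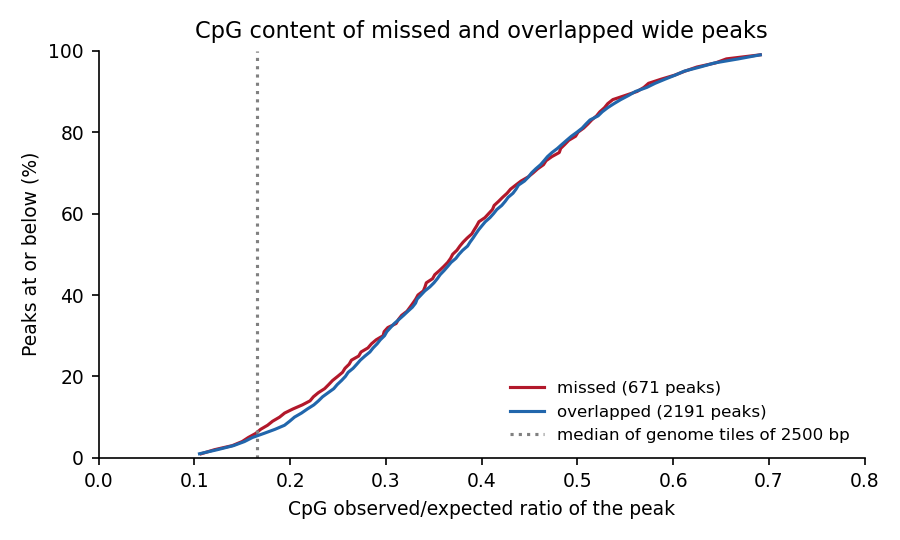
Cumulative percentage of peaks (y axis) at or below each observed/expected CpG ratio (x axis, no unit) for 671 missed and 2191 overlapped wide peaks, with a dotted line at the median of genome tiles, 0.166. The curves run almost on top of each other, with medians of 0.370 and 0.376.

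CpG islands, here windows of at least 200 bp with a GC content over 50% and a ratio over 0.6, were found in 522 missed peaks (77.8%, 74.5 to 80.8%) and in 1809 overlapped peaks (82.6%, 80.9 to 84.1%). The difference was -4.77 percentage points (-8.41 to -1.37). When overlapped peaks were weighted to the widths of the missed ones their share came to 77.4%, and the difference was 0.38 points. At equal width the groups thus held islands about equally often. Repeats, read from the lower-case bases of the reference, took a median of 13.2% of a missed peak and 13.0% of an overlapped one, against 26.4% of the genome tiles, and the difference of 0.19 points had an interval of -0.83 to 0.83.

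A protein-coding gene start (GENCODE vM21) lay inside 198 of the 671 missed peaks (29.5%, 26.2 to 33.1%) and inside 671 of the 2191 overlapped peaks (30.6%, 28.7 to 32.6%). The difference was -1.12 points (-4.98 to 2.92). At equal width the order turned, with 23.8% for overlapped peaks weighted to the missed widths and a difference of 5.69 points. In the step of 3000 to 3499 bp, for example, 47.2% of missed peaks (37.2 to 57.5%) and 33.3% of overlapped peaks (28.9 to 37.9%) crossed a gene start. These separate intervals overlap narrowly, and no interval of the difference was computed within width steps. A start lay within 3 kb of 56.0% of missed and 59.5% of overlapped peaks, a difference of -3.48 points (-7.77 to 0.77). With overlapped peaks weighted to the missed widths their share was 57.2% and the difference -1.19 points. At 2500 to 5000 bp the difference was 0.16 points. By the authors' distance column, first entry of each peak, a gene lay within 3 kb of 60.8% of missed and 65.7% of overlapped peaks, a difference of -4.87 points (-9.10 to -0.73). That interval leaves out 0, but this share was not weighted to the missed widths.

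The authors' annotated table places each peak against a gene. By its first entry for each peak, 30.0% of missed and 30.3% of overlapped peaks overlapped the start of the gene, 31.3% and 31.2% lay inside it, 26.7% and 23.8% lay upstream and 8.94% and 8.90% downstream. The end of the gene was overlapped by 2.09% and 4.06%, and 1.04% and 1.73% enclosed the whole gene. The separate intervals of the 2 groups overlapped in all 6 categories, but only narrowly for the end of the gene (1.25 to 3.47% and 3.31 to 4.97%). An interval of the difference was computed for the gene start and upstream categories alone. The difference was -0.35 points (-4.23 to 3.69) for the gene start and 2.85 points (-0.84 to 6.73) for upstream. Missed peaks listed as upstream lay a median of 15620 bp from their gene and those listed as downstream 24630 bp. Counted by bases, 6.99% of the missed sequence was coding, 7.42% untranslated exon, 47.8% intron and 37.8% outside protein-coding genes, against 5.77%, 6.77%, 46.4% and 41.1% in overlapped peaks.

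Around the 392 gene starts within 3 kb of a missed peak, the peaks leaned into the transcribed side. They covered the start itself in 50.8% of these genes, the point 1200 bp downstream in 68.6%, which was their maximum, and the point 1 kb upstream in 37.0%. For the 1216 starts near overlapped peaks the maximum was 72.5%, at 1300 bp downstream, with 51.3% covered 1 kb upstream. Overlapped peaks covered a larger share on both sides of the start, also farther downstream, with 54.9% against 38.3% at 2400 bp and 31.0% against 14.3% at 3300 bp, and they were also the wider ones. The CpG ratio of the promoter, taken from 250 bases before to 50 bases after the start, had a median of 0.523 over 199 genes whose start lay in a missed peak, 0.568 over 688 genes in overlapped peaks and 0.540 over all 20780 protein-coding genes of these chromosomes.

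**Figure D3:**
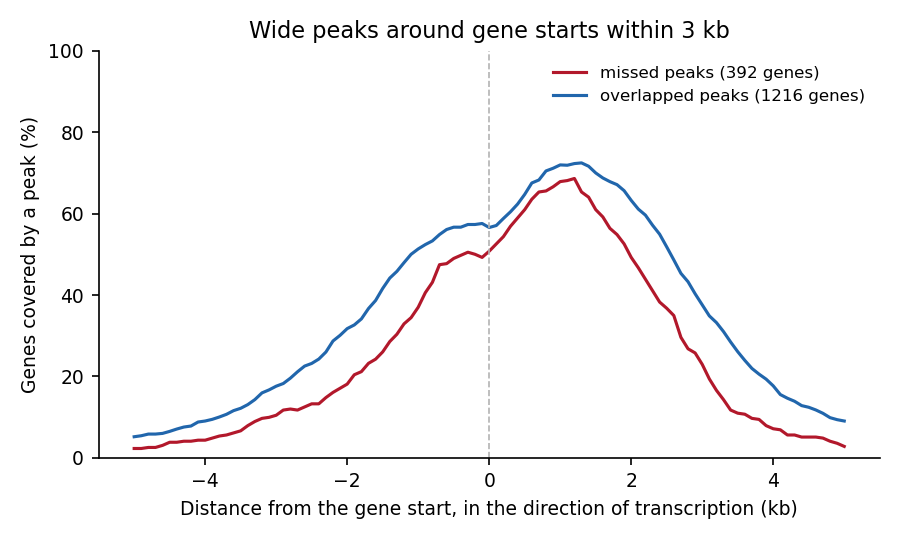
Percentage of genes covered by a wide peak (y axis) at each distance from the gene start in kb (x axis, downstream positive), for 392 genes within 3 kb of a missed peak and 1216 within 3 kb of an overlapped peak. Both curves peak downstream of the start, at 68.6% and 72.5%, and the overlapped curve is higher on both sides of the start, with 51.3% against 37.0% at 1 kb upstream and 54.9% against 38.3% at 2400 bp downstream.

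The surroundings in the 15000-EMP list differed between the groups. No other 15000-EMP peak lay within 10 kb of 210 missed peaks (31.3%, 27.9 to 34.9%), against 346 overlapped peaks (15.8%, 14.3 to 17.4%), a difference of 15.5 points (11.8 to 19.4). Weighting the overlapped peaks to the missed widths gave 13.7%, so the difference was as large at equal width. A missed peak stood alone more often in each of the 6 width steps, with 27.5% against 10.8% at 2000 to 2499 bp and 52.5% against 16.7% at 3500 to 3999 bp. The intervals of the 2 groups overlapped only in the step of 4000 to 4499 bp, where 3 of 15 missed peaks (20.0%) and 19.3% of overlapped ones stood alone.

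**Figure D4:**
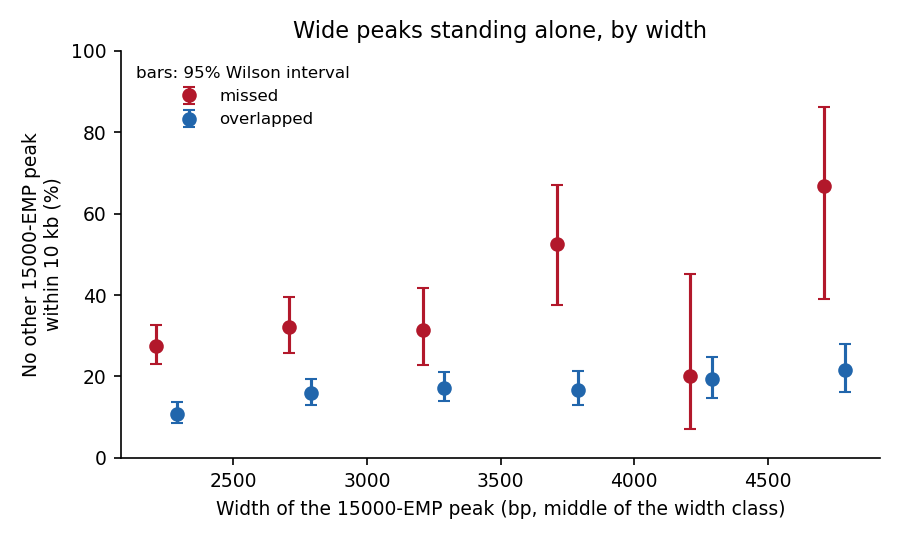
Percentage of wide peaks with no other 15000-EMP peak within 10 kb (y axis) against peak width (x axis, bp), for missed and overlapped peaks, with 95% Wilson intervals as bars. Missed peaks lie above overlapped ones in all 6 width classes, least at 4000 to 4499 bp (20.0% and 19.3%).

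Broad peaks, over 5 kb wide, were rarer near the members too. One lay within 10 kb of 50 missed peaks (7.45%, 5.70 to 9.69%) and of 361 overlapped peaks (16.5%, 15.0 to 18.1%), a difference of -9.02 points (-11.4 to -6.33). The nearest other 15000-EMP peak was a median of 704 bp away from a missed peak and 380 bp from an overlapped one. Read from the neighbours, 37.8% of the 556 wide peaks standing alone were missed, 25.8% of those with 1 or 2 neighbours, 13.1% with 3 or 4 and 14.9% with 5 or more. Among peaks under 3 kb wide these shares were 52.3%, 34.6%, 20.6% and 23.5%. Since MACS2 in broad mode joins nearby enriched stretches, a close neighbour may be part of the same marked domain, and neighbours are no independent units.

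The missed peaks also differed among themselves by how far the nearest 500-EMP peak lay. That distance was a median of 48815 bp (34666 to 64222), and it is a description, since the rule used the same list. Within 1 kb lay 93 members (13.9%), between 1 and 10 kb 137 (20.4%), between 10 and 100 kb 171 (25.5%) and farther than 100 kb 270 (40.2%). Of the farthest class, 118 (43.7%, 37.9 to 49.7%) crossed a gene start, whereas in the class of 1 to 10 kb only 16 did (11.7%, 7.32 to 18.1%). The farthest class had a median CpG ratio of 0.412 against 0.284 there, and a median distance to a gene start of 308 bp against 5950 bp. Missed peaks with no other 15000-EMP peak within 10 kb lay mostly in the far classes, with 4 of 93 up to 1 kb, 2 of 137 at 1 to 10 kb, 69 of 171 at 10 to 100 kb and 135 of 270 beyond. Members close to a 500-EMP peak thus seldom stood alone. The contrasts between these classes are descriptions too, since the classes were cut by distance to the list that the rule used. In the class up to 1 kb the share across gene starts was 21.5% (14.4 to 30.9%) and the median ratio 0.327, and in the class of 10 to 100 kb they were 25.7% (19.8 to 32.8%) and 0.347, so the values did not follow the distance in a single direction.

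By chromosome, the share missed ran from 18.1% on chromosome 7 (40 of 221, 13.6 to 23.7%) to 35.9% on chromosome 16 (23 of 64, 25.3 to 48.2%). The interval of chromosome 16 alone among the 19 did not hold 23.4%, and it was singled out after the values were seen.

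Of the 10 widest members, 6 crossed a gene start. The widest, of 4957 bp, covered the start of C1ql3 (chr2:13008879-13013835), which encodes a secreted synaptic protein, and its nearest 500-EMP peak was 780149 bp away. Peaks across gene starts followed at St6gal2, a sialyltransferase gene (4774 bp), Astn2, a neuronal membrane protein gene (4771 bp), Adamts18, a secreted protease gene (4659 bp), Slc40a1, the iron exporter ferroportin (4630 bp), and Kcnj3 (4612 bp). The remaining 4 of the 10 widest crossed no gene start. They lay within Rsph6a, a sperm flagellum gene (4826 bp), upstream of Exoc2, an exocyst gene (4764 bp), within the predicted gene Gm5089 (4681 bp), and over the end of Nhlh1, a neuronal bHLH factor gene (4623 bp). In 6 of these 10, no other 15000-EMP peak lay within 10 kb, and the distance to the nearest 500-EMP peak ran from 297 bp near Exoc2 to 3207049 bp at Slc40a1.

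Among the members across gene starts, the longest CpG island stretches were at Rtn4rl1, a Nogo receptor relative (2528 bp of island in a peak of 3399 bp), and Gprc5c, an orphan receptor gene (2394 bp of 3192 bp). Next came Ankrd34a (2278 bp), C1ql3 (2209 bp), Col13a1, a transmembrane collagen gene (1913 bp), and Zfyve28 (1884 bp). Astn2 (1851 bp), Lingo2, a leucine-rich repeat protein gene (1836 bp), Pde4a, a cAMP phosphodiesterase gene (1818 bp), and Avpr1a, a vasopressin receptor gene (1810 bp), completed the 10. Their CpG ratios ran from 0.515 at C1ql3 to 0.680 at Zfyve28.

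The 5 members farthest from a protein-coding gene start lay 472974 to 680169 bp from it. The one in Magi2, a synaptic scaffold gene (2736 bp wide), was the farthest, followed by one in Ntm, a neuronal adhesion gene (4463 bp wide), at 547936 bp. The others were nearest to Galr1, a galanin receptor gene, Fgf14, an intracellular FGF family gene, and Ctnnd2, a catenin gene. All but the one nearest to Galr1 lay within protein-coding genes, with 2240 to 3814 bases of intron each. All 5 still had CpG ratios of 0.323 or more, above the genome tile median of 0.166.

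By the authors' distance, 407 of the 671 members (60.7%) named a gene within 3 kb, 425 genes in all. Of these, 328 (77.2%, 73.0 to 80.9%) had no 500-EMP peak within 3 kb, where the share among all 4128 genes near a 15000-EMP peak was 42.4%. This follows from the rule and nothing is read from it. The other 97 genes had a 500-EMP peak within 3 kb outside the missed peak. All 15000-EMP peaks within 3 kb were missed wide peaks for 197 of the 425, and 45 were also named by an overlapped wide peak. Of the 1349 genes named by overlapped wide peaks, 52 (3.85%) had no 500-EMP peak within 3 kb. The members carried 18.7% of the 1751 genes near a 15000-EMP peak that lacked a 500-EMP peak, so most of these genes had narrower or other peaks.

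The labelled cell type was checked against marker genes, at which a silencing mark should be absent in cells that use them. None of 10 EMP and blood progenitor genes, such as Kit, Runx1, Gata1 and Spi1, had a peak within 3 kb in either list, and neither had any of 4 macrophage or 6 housekeeping genes. Of 8 endothelial genes, 3 (Kdr, Sox17 and Sox18) had a 15000-EMP peak and 1 a 500-EMP peak. Of 4 mesenchymal genes, Col1a1, Pdgfra and Twist1 had peaks in both lists, and of 4 erythroid genes, Epor and the embryonic globin Hba-x had a 15000-EMP peak. Among all protein-coding genes, 3681 of 21924 had a 15000-EMP peak and 2144 a 500-EMP peak within 3 kb, so most genes of any kind lacked a peak, and lists this short tell little about the cell type. None of these markers was named by a missed peak. On a longer list of 36 blood genes, which holds all 10 of the progenitor genes, 6 had a 15000-EMP peak and 1 a 500-EMP peak within 3 kb, and a missed peak named Gata2, described further on.

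The genes named by missed peaks held few of the listed developmental transcription factors, and the low share was clearest at homeobox genes. Of all 1729 genes named by any wide peak, missed peaks named 24.6%, and of the 1571 protein-coding ones 393 (25.0%, 22.9 to 27.2%). Of 123 genes in 7 families of developmental transcription factors, they named 12 (9.76%, 5.67 to 16.3%). The 7 families were put together after their values had been seen. Missed peaks named 1 of 17 Hox genes, 1 of 48 other homeobox genes on the name-pattern list, 0 of 9 forkhead genes, 1 of 5 Sox genes, 2 of 6 T-box genes, 6 of 29 bHLH genes and 1 of 9 genes of the Gata, Tfap2, Zic, Gli, Ebf and Klf families. Of the 7, only the listed other homeobox genes had an interval wholly below 25.0% (0.369 to 10.9%). That list does not hold every homeobox gene. Missed peaks also named Nanog, Zfhx4 and Zhx2, which lie outside it, and such genes at overlapped peaks were not counted. The other families with fixed name patterns, without Zfp zinc fingers and olfactory receptors, had 60 of 276 genes named (21.7%, 17.3 to 27%).

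**Figure D5:**
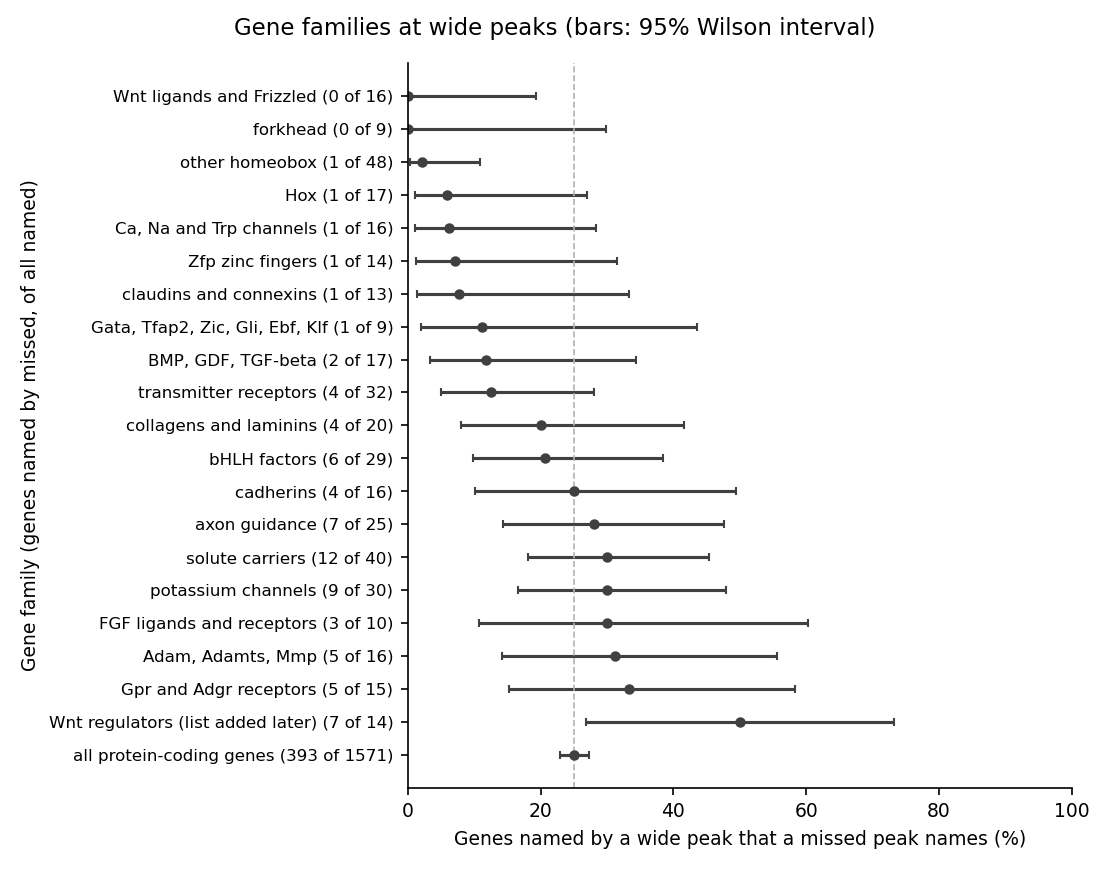
Percentage of the genes named by a wide peak that a missed peak names (x axis), by gene family (y axis, with the counts). Shown are the single families of at least 9 such genes, without the endothelial list, with 95% Wilson intervals as bars. A dashed line marks 25.0%, the value of all protein-coding genes. Other homeobox genes on the name-pattern list (1 of 48) and Wnt ligands and Frizzled receptors (0 of 16) have intervals wholly below the line. Ion channel, matrix and transporter families have intervals that hold it, and the Wnt regulator list, made after its values were seen, lies above it.

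Wide peaks at transcription factor genes were wider and more crowded than others, with a median width of 3273 bp against 2961 bp for all protein-coding genes and a median of 3 against 2 other peaks within 10 kb. Wider and more crowded peaks were also missed less often among wide peaks at large. The part of width and crowding in the low share was not tested, and the shares by classes of both are given as values. Among peaks under 3 kb with at most 2 neighbours, 4 of 20 at transcription factor genes (20.0%, 8.07 to 41.6%) and 227 of 593 at other protein-coding genes (38.3%, 34.5 to 42.3%) were missed. With 3 or more neighbours the counts were 2 of 39 (5.13%, 1.42 to 16.9%) and 47 of 245 (19.2%, 14.7 to 24.6%). Among peaks of 3 kb or more, 3 of 31 (9.68%) and 95 of 533 (17.8%) were missed with at most 2 neighbours, and 3 of 63 (4.76%) and 6 of 220 (2.73%) with 3 or more. The share was thus lower at transcription factor genes in 3 of these 4 classes, and all 4 pairs of intervals overlapped. Overlap of separate intervals does not show that a difference is absent, and no interval of the difference was computed for these classes. These classes were formed after the values had been seen.

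For 8 of the 12 transcription factor genes a 500-EMP peak lay within 3 kb of the gene, beside 97 of all 425 genes named by missed peaks (22.8%). These were Hoxa7, a body axis gene whose missed peak of 3740 bp crossed the start 2119 bp from a 500-EMP peak, Sox11 (2385 bp), Tbx21 (3504 bp), Tbx1 (2294 bp), Msc (3224 bp), Npas4 (3130 bp), Id2 (2418 bp) and Hey1, a Notch target also on the endothelial list (2174 bp). The other 4 had no 500-EMP peak within 3 kb. They were Pax4, a pancreatic homeobox gene (3685 bp, across the start), Nhlh1 (4623 bp), Tal2, a relative of the blood factor Tal1 (2404 bp, across the start), and Gata2, a factor of blood stem and progenitor cells (2640 bp, inside the gene, 667 bp by the authors' distance). Gata2 was also the single gene of the blood list named by any wide peak, and its nearest 500-EMP peak was 609792 bp away.

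Signalling genes were counted by family, and the families were not compared with each other. Of these families, only Wnt ligands and Frizzled receptors had an interval wholly below the 25.0% of all protein-coding genes. Of 16 Wnt ligand and Frizzled receptor genes named by a wide peak, missed peaks named 0 (upper bound 19.4%), and of 2 Notch and Hedgehog genes 0. Of 17 genes of BMP, GDF and TGF-beta ligands and antagonists they named Gdf11 (2528 bp, upstream) and Bmp4, a ligand of mesoderm patterning (2218 bp, inside the gene). Both lacked a 500-EMP peak within 3 kb, as did 77.2% of all genes named by missed peaks. Of 10 FGF genes they named Fgf21, a metabolic hormone (2587 bp), Fgf5 (2110 bp) and Fgf18 (2083 bp), of which Fgf5 had a 500-EMP peak within 3 kb. Of 8 genes for IGF, VEGF and PDGF ligands, receptors and binding proteins they named Pgf, the placental growth factor (2549 bp), Igfbp3 (2203 bp) and Igfbp5 (2169 bp).

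A list of Wnt regulators and nuclear effectors was added after its values had been seen and supports nothing. Missed peaks named 7 of its 14 genes with a wide peak, beside 25.0% of all protein-coding genes. None of the 7 had a 500-EMP peak within 3 kb, and 77.2% of all genes named by missed peaks had none either, which follows largely from the rule. They were the secreted antagonists Dkk2 (3250 bp) and Wif1 (2780 bp), the agonist Rspo3 (3106 bp), the receptor Ror1 (3114 bp), the feedback inhibitor Axin2 (2915 bp) and the nuclear factors Tcf7l1 (2162 bp) and Tcf7 (2159 bp). The Axin2 peak lay inside the gene, 1163 bp by the authors' distance, and 1005274 bp from the nearest 500-EMP peak.

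Potassium channel genes stood near the background, with 9 of 30 genes named by missed peaks (30.0%, 16.7 to 47.9%). All 9 peaks crossed the gene start, as did 198 of the 376 missed peaks within 3 kb of a start, and 8 of the 9 genes had no 500-EMP peak within 3 kb, a share near the 77.2% of all genes named by missed peaks. In order of width they were at the inward rectifier Kcnj3 (4612 bp), the calcium-activated Kcnn1 (3409 bp), Kcnf1 (3159 bp), the inward rectifier Kcnj9 (2668 bp), the voltage-gated Kcna5 (2572 bp), the inward rectifier Kcnj5 (2362 bp), Kcng4 (2308 bp), Kcnv1 (2143 bp) and Kcnq3 (2125 bp), the last with a 500-EMP peak 1159 bp from the missed one. Calcium, sodium and Trp channels had 1 of 16 genes named, Cacna1i (2059 bp). Of 32 transmitter receptor genes, 4 were named, namely the glutamate receptors Grin2a (3601 bp), Grin3b (2604 bp) and Grm3 (2175 bp) and the adrenergic receptor Adra2a (2134 bp), with Grin3b alone lacking a 500-EMP peak within 3 kb.

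Axon guidance genes, whose products steer growing axons and vessels, had 7 of 25 named (28.0%, 14.3 to 47.6%). They were the netrin relative Ntng2 (3689 bp), the ephrin receptors Epha6 (3369 bp) and Ephb3 (2740 bp), the ligand Slit1 (2776 bp), the netrin receptors Unc5a (2681 bp) and Dcc (2664 bp), and the semaphorin receptor Plxna2 (2498 bp). Unc5a alone had a 500-EMP peak within 3 kb, where 77.2% of all genes named by missed peaks had none, which follows largely from the rule. The missed peaks of Epha6 and Slit1 crossed the gene start. Of 16 cadherin genes, 4 were named: Fat3 (2551 bp), Pcdhga11 (2292 bp), Pcdhgc3 (2171 bp) and Cdh20 (2018 bp).

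Genes of the extracellular matrix and its enzymes were close to the background as well. Of 20 collagen and laminin genes, 4 were named (20.0%, 8.07 to 41.6%): the fibrillar collagens Col5a1 (4571 bp) and Col5a3 (2087 bp), Col13a1 (2951 bp) and the cartilage collagen Col9a2 (2803 bp). All 4 peaks crossed the gene start, as did 198 of the 376 missed peaks within 3 kb of a start. None of the 4 genes had a 500-EMP peak within 3 kb, beside 77.2% of all genes named by missed peaks without one, and the nearest one lay 68364 bp (Col5a3) to 303142 bp (Col5a1) away. Of 16 Adam, Adamts and Mmp protease genes, 5 were named, Adamts18 (4659 bp), Adamts9 (3530 bp), Mmp24 (3348 bp), Adam19 (3099 bp) and Adam22 (2180 bp), and Mmp24 alone had a 500-EMP peak within 3 kb. Of 13 claudin and connexin genes, missed peaks named Gjd3 (3064 bp).

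Solute carriers, the transporters of ions and nutrients, had 12 of 40 genes named (30.0%, 18.1 to 45.4%), near the 25.0% of all protein-coding genes. Of the 12, 10 had no 500-EMP peak within 3 kb, near the 77.2% of all genes named by missed peaks. The 3 widest peaks were at Slc40a1 (4630 bp), Slc7a4 (3404 bp) and the thyroid iodide transporter Slc5a5 (2859 bp). Of 15 orphan and adhesion receptor genes of the Gpr and Adgr families, 5 were named, among them Gpr139 (2493 bp), Gpr37 (2249 bp) and Adgrb3 (2 peaks, 2224 and 2116 bp). Of the 5, Gpr139 alone had a 500-EMP peak within 3 kb. Of 14 Zfp zinc finger genes, 1 was named, Zfp428 (2464 bp). The olfactory receptor genes Olfr94 (3753 bp) and Olfr95 (2429 bp), the 2 sensory receptor genes near a wide peak, were both named by missed peaks, and of a list of 22 housekeeping genes, 0 had a 15000-EMP peak and 1 had a 500-EMP peak within 3 kb.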

How the data were processed

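The series measured H3K27me3 by CUT&RUN in 500 and 15000 EMPs, with 1 H3K27me3 and 1 IgG library each, grouped by their titles. The authors mapped reads to mm10 (GRCm38) by Bowtie2 version 2.2.1 and called peaks in broad mode per H3K27me3 library by MACS2 version 2.1.2, at a p-value limit of 0.01 for 500 EMPs and 0.05 for 15000 EMPs. The authors' command listing names the libraries crosswise, and the lists were used under the labels they carry. The deposited files gave peak positions and a table of genes, categories and distances made with ChIPpeakAnno. They hold no score, read count or depth, so a peak was present or absent. IgG libraries had no peak list used here.

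Overlaps of at least 1 bp were counted in Python version 3.11.15 with pandas version 2.3.3 and SciPy version 1.17.1, and helpers were tested on simulated data. Coordinates are 1-based, and 0 peaks ran past a chromosome end of the reference. Base composition and repeats came from the RefSeq GRCm38.p6 sequence, gene starts from GENCODE vM21, and promoter sequences from RefSeq. A gene was named by a peak where the authors' distance was at most 3 kb. Families were matched by name pattern or list, by way of Ensembl identifiers.

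The members and lists were chosen with earlier results of these data known. Some lists were renamed, tightened or added after values were seen. Genes named in the text were those of the 10 widest members, the 10 members across gene starts with the longest CpG islands, the 5 farthest from a gene start, the peaks next to each limit, and all list genes named by a missed peak (those of the 3 widest peaks where a list had over 10). Nanog, Zfhx4 and Zhx2 were named besides, as homeobox genes outside the lists. Some genes of the receptor list are not reported here. Alternatives were another overlap rule, width range, distance limit, annotation and island definition, X included, and overlapped peaks weighted in 500-bp width steps.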

Additional observations from a re-analysis of the deposited data

How the results depend on the processing

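With 1 library a group, a replicate could not be left out. No paired analysis was possible because each group held 1 library. A stricter peak score could not be run, since the files used here give no score. Of 68 values recomputed under alternatives, 48 stayed within the interval, or within 1.5 times the count, of the value given above. The share of wide peaks missed, 23.4%, was 20.2% when a 500-EMP peak within 1 kb counted as an overlap, 39.4% (1128 peaks) when at least 10% of the peak had to be covered, 29.6% without the 1759 shortest 500-EMP peaks (137 bp), 39.9% after 15000-EMP peaks within 1 kb were joined, and 17.0% (333 peaks) at 2500 to 5000 bp.

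At 2500 to 5000 bp the width difference was -439 bp, the median distance to a 500-EMP peak 67584 bp, the share missed on chromosome 7 13.4% and the number of genes named 231. With members kept only where no 500-EMP peak lay within 1 kb, the island difference was -1.25 points, the difference in standing alone 20.3 points, the distance to a 500-EMP peak 79902 bp, and the share of named genes without a 500-EMP peak 87.4%, against 87.5% at a gene distance of 1 kb. Weighting overlapped peaks to the missed widths turned the island difference to 0.38 points and gave 5.69 points for gene starts and 5.57 points for the authors' start category. Over the middle 2000 bp of each peak the CpG difference turned to 0.011. On chromosome X, outside the rule, 10 of 32 wide peaks were missed (31.3%). The depth of each library is unknown from the files, and a peak not called at 500 EMPs does not show that the mark was absent.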
